A study of Mus musculus with 6 samples.

Results

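The 10 genes *Sod1*, *Sod2*, *Sod3*, *Gpx1*, *Gpx3*, *Gpx4*, *Prdx1*, *Txnrd1*, *Nqo1* and *Hmox1* encode enzymes that remove superoxide, peroxides and reactive quinones or that break down heme. They were taken by symbol from a table of 39179 mouse genes counted in 6 primary osteosarcomas, and each symbol matched a single Ensembl identifier. No measured value entered the rule of choice, but earlier results of these data were known when the genes were chosen. *Cd44*+/+ tumors came from mice No244, No316 and No368, and *Cd44*−/− tumors from mice No203, No279 and No364. All of the mice carried the *Nf2*Δ2/+ genotype, an altered copy of the gene for Merlin, on a mixed C57BL/6 x 129/Sv x FVB background, so that wild-type *Nf2* was not part of the comparison. The age of the mice was not given, and the tumors had not been treated with doxorubicin. In the study, these tumors were sequenced to look for further processes through which CD44, a receptor for hyaluronic acid, could affect drug resistance. One label names cell lines as the source of the RNA, while the tissue label and the methods name osteosarcoma tissue.

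Superoxide formed by mitochondria and oxidases is converted to hydrogen peroxide by superoxide dismutases in the cytosol (*Sod1*), in mitochondria (*Sod2*) and outside the cell (*Sod3*). Glutathione peroxidases, peroxiredoxins and catalase then reduce the peroxide, with glutathione and thioredoxin as electron donors that are renewed at the expense of NADPH. Many of these genes are targets of the transcription factor Nrf2 (*Nfe2l2*), which is held back by Keap1, and doxorubicin is known to generate superoxide through redox cycling.

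*Cd44* itself (ENSMUSG00000005087) had 137, 243.6 and 240.3 CPM (counts scaled to the normalized library size) in the *Cd44*+/+ tumors, and 19.2, 15.7 and 61.8 CPM in the *Cd44*−/− tumors. Here and throughout, the values of a genotype are listed in the order No244, No316, No368 for *Cd44*+/+ and No203, No279, No364 for *Cd44*−/−. The levels did not overlap, with a log2 fold change of −2.68 (SE 0.65). The unadjusted p of *Cd44* from edgeR's quasi-likelihood test was 0.00494, and its Benjamini-Hochberg adjusted p was 0.452. The edgeR fit at an adjusted p under 0.05 thus did not call even the deleted gene, while DESeq2 gave it an adjusted p of 0.0145. The libraries held between 18076388 and 26954142 counts. 3 counts, taken as the smallest detectable level, ranged from 0.0990 CPM in No279 to 0.252 CPM in No244 (counting error only). No316 and No368 were nearly the same in counts. Of 16671 genes, 87.2% differed by no more than binomial sampling noise between them, against 15.7% to 24.0% in the other pairs of tumors. They were therefore counted as 1 sample in means and SDs, which leaves n = 2 for *Cd44*+/+ and n = 3 for *Cd44*−/−, although the fit across genes used all 6 libraries. In No244, 55.2% of counts fell on mitochondrial genes, against 5.94% to 12.5% in the other tumors. In No364, 19 hepatocyte marker genes summed to 158337 CPM, against 64.7 to 226 CPM in the other tumors, and all 19 were highest there. Osteoblast markers, 10 genes with *Runx2* and *Col1a1* among them, summed to 3696 CPM in No364 and to 22522 to 84991 CPM in the other 5, where *Col1a1* and *Col1a2* made up most of the sum. The bone matrix genes *Bglap*, *Ibsp* and *Dmp1* were near 0 in both No279 (4.79, 3.27 and 0.363 CPM) and No364 (6.80, 2.25 and 0.523 CPM), and had at least 269, 640.1 and 147 CPM in each of the other 4 tumors. Counts of 4 Y-linked genes reached 1333 in No279 and 1329 in No364 and lay between 0 and 39 in the other 4 tumors, and the part of sex, which the labels do not give, was not tested.

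No antioxidant enzyme gene passed the test between genotypes. 8 of the 10 had a higher fitted level in *Cd44*−/− tumors, and 3 of them, *Sod2*, *Gpx1* and *Prdx1*, were higher in every *Cd44*−/− tumor than in any *Cd44*+/+ tumor. With edgeR's quasi-likelihood test, 0 of the 10 genes had a Benjamini-Hochberg adjusted p under 0.05, as did 0 of all 16839 genes tested (0%), and the smallest adjusted p of any gene was 0.452. With DESeq2, 0 of the 10 genes were called, and 2.33% of all genes with an adjusted p were. An unadjusted edgeR p under 0.05 was found for the same 3 genes, all higher in *Cd44*−/− tumors, against 10.7% of all genes in either direction. Groups that did not overlap with *Cd44*−/− higher were found for 9.49% of all genes, and with *Cd44*−/− lower for 9.57% of all genes and 0 of the 10. The median log2 fold change of the 10 genes was 1.25, against 0.11 over all genes tested, of which 55.1% lay above 0.

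The number of genes with an unadjusted p under 0.05 depended on single libraries. With No316 and No368 summed into 1 sample, 0 of the 10 genes had an unadjusted p under 0.05 (4.26% of all genes), while the median log2 fold change was 1.16. Leaving out No316 or No368 alone likewise left 0 genes (4.30% and 4.43% of all genes), and leaving out No244 left 1 (10.8% of all genes). Without No364, 7 genes lay above 0, the median was 0.66 against 0.043 over all genes, and *Sod2* and *Gpx1* had an unadjusted p under 0.05 (8.82% of all genes). Without both No244 and No364, 6 genes lay above 0, the median was 0.32, and *Sod2* alone had an unadjusted p under 0.05 (17.9% of all genes). With a hepatocyte score as covariate, the mean log2 CPM of the hepatocyte markers, which was 12.2 in No364 and 0.967 to 2.31 in the other tumors, 7 genes lay above 0, the median was 0.66, and *Sod2* alone had an unadjusted p under 0.05 (9.01% of all genes). The score mainly sets No364 apart, so this fit cannot separate the hepatocyte markers from any other feature of that tumor.

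**Figure D1:**
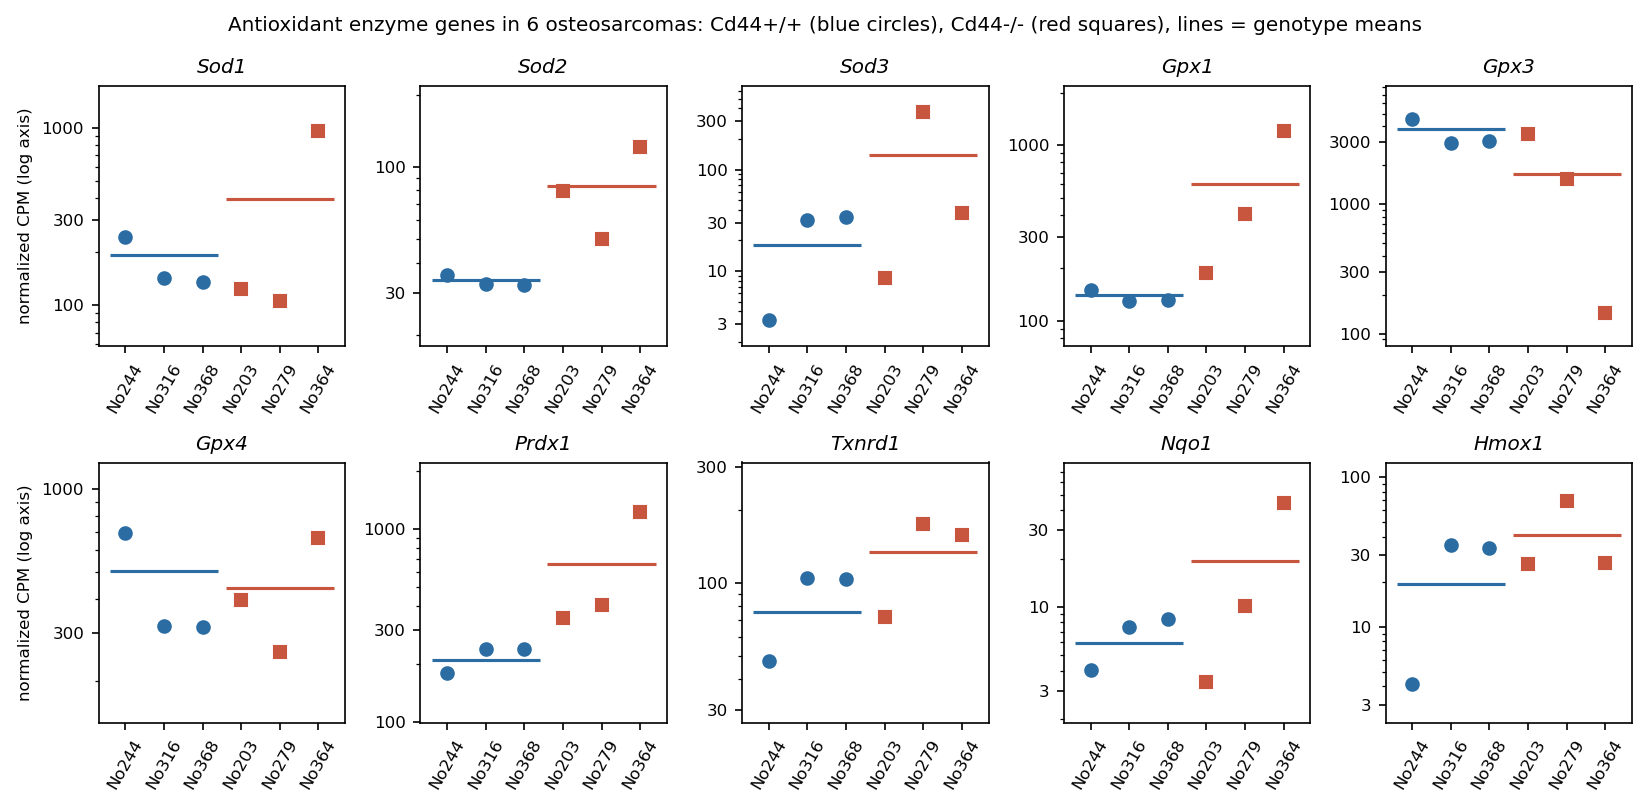
Normalized CPM (log axis, its range set for each gene) of the 10 antioxidant enzyme genes in each of the 6 tumors, *Cd44*+/+ as blue circles and *Cd44*−/− as red squares, with a line at each genotype mean (No316 and No368 averaged into 1 sample). The *Cd44*−/− tumors lie above all *Cd44*+/+ tumors for *Sod2*, *Gpx1* and *Prdx1*, and No364 is the highest tumor for 5 genes.

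The promoters of the 3 genes whose genotypes did not overlap are shown because the study considered that the released intracellular domain of CD44 acts on genes that carry a response element (CIRE, CCTGCG) or the phorbol ester response element (TRE, TGACTCA), and because Nrf2 binds the antioxidant response element (core TGACNNNGC). Windows from 250 bases before to 50 bases after each start were read from RefSeq promoters of GRCm38.p6 and searched on both strands. The study searched a longer stretch before the start, in *Abcb1a* and *Abcb1b*, so a sequence absent from a window here could still lie further upstream. Windows were held for 8 of the 10 genes, 13 in all. Of all 32851 windows, 12.4% held the antioxidant response element core, 5.2% the TRE and 17.3% the CIRE. Only bases outside annotated exons are printed, all on the plus strand, which is the strand of these genes, with matches in capitals.
*Sod2*, chr17:13007589-13007816: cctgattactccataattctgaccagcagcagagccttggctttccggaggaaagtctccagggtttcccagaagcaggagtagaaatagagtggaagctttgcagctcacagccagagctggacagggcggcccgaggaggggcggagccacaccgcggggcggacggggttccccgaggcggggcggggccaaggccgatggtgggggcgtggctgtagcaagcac
*Gpx1*, chr9:108338830-108338902: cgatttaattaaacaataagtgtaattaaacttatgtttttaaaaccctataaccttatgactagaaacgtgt
*Prdx1*, chr4:116685349-116685543: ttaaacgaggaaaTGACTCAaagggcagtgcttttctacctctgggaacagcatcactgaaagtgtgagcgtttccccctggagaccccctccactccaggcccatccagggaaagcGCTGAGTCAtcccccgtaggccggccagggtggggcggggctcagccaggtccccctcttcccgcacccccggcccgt
The *Sod2* and *Gpx1* windows held none of the 3 sequences. In the *Prdx1* window, a TRE began 237 bases before the start, and the second run of capitals is the antioxidant response element core on the minus strand, whose last 7 printed bases also read as a TRE on that strand. A CIRE began at position 13 after the *Prdx1* start. 

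Among the other genes with a window, the antioxidant response element core was found before *Sod1*, beginning 56 bases before the start, and before 1 of 3 *Txnrd1* starts, beginning 92 bases before it. Both lie on the minus strand and are shown with the bases around them.
*Sod1*, chr16:90220690-90220730: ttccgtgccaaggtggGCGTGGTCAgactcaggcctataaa
*Txnrd1*, chr10:82859098-82859138: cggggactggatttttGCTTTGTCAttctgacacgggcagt
*Sod1* also held a CIRE at position 12 after its start, and *Gpx4* a CIRE that lies 58 bases before one of its 4 starts. *Gpx3* and *Nqo1* windows held none of the 3 sequences. The matches are descriptions of letters in these windows and were not set against the expression values in a test.

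*Sod1*, *Sod2* and *Sod3* differed from each other in which tumor was highest. *Sod1* (ENSMUSG00000022982, chr16:90220754-90226329, plus strand), the copper and zinc enzyme of the cytosol, had 243, 143 and 135 CPM in the *Cd44*+/+ tumors and 123, 106 and 955 CPM in the *Cd44*−/− tumors. No364 was far above the other tumors, while No203 and No279 lay below all *Cd44*+/+ tumors, so the genotypes overlapped. The genotype means were 191 ± 73.6 CPM (SD, n = 2) and 395 ± 485 CPM (SD, n = 3), and the log2 fold change was 1.18 (SE 0.93, 95% confidence interval −1.05 to 3.41), with an adjusted p of 0.635 from edgeR's quasi-likelihood test. Without No364 the log2 fold change of *Sod1* was −0.59 (95% confidence interval −1.61 to 0.42). DESeq2 gave *Sod1* no adjusted p because its filter on outlying counts removed it. The gene is overlapped by *Scaf4* on the opposite strand, and the strand setting of the counting is not given in the sources used here.

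*Sod2* (ENSMUSG00000006818, chr17:13006846-13040063, plus strand), the manganese enzyme of mitochondria, had 35.5, 32.7 and 32.5 CPM in the *Cd44*+/+ tumors and 79.5, 50.02 and 121 CPM in the *Cd44*−/− tumors. Its *Cd44*+/+ levels lay close together, and the lowest *Cd44*−/− tumor, No279, was above all of them. The means were 34.1 ± 2.11 CPM (SD, n = 2) and 83.4 ± 35.5 CPM (SD, n = 3), a log2 fold change of 1.31 (SE 0.40, 95% confidence interval 0.36 to 2.27). edgeR gave an unadjusted p of 0.0141 and an adjusted p of 0.452, and DESeq2 an adjusted p of 0.165. Without No364 the log2 fold change was 0.96 (95% confidence interval 0.17 to 1.74), and with No316 and No368 summed the unadjusted edgeR p was 0.0598. Of the 51-base stretches of its transcripts, 20.8% also occur in transcripts of other genes, so part of its counts could have been split with them.

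*Sod3* (ENSMUSG00000072941, chr5:52363791-52371418, plus strand), the secreted enzyme of the extracellular matrix, had the widest range of the 10 genes. It had 3.28, 31.7 and 34.2 CPM in the *Cd44*+/+ tumors and 8.53, 370.3 and 37.2 CPM in the *Cd44*−/− tumors. The highest tumor, No279, exceeded the lowest, No244, 113-fold, and both genotypes held a tumor under 10 CPM. Of 6 cartilage markers, *Acan*, the cartilage proteoglycan, was also highest in No279, at 153 CPM against 0.168 to 10.3 CPM in the other tumors, as were *Sox9* (17.7 CPM) and *Matn1* (0.132 CPM). The cartilage collagens *Col2a1* and *Col9a1* were at 0.627 and 0 CPM there, with their highest levels in No244 (38.3 CPM) and No203 (1.03 CPM), and *Chad* was at 0.033 CPM. The part of these markers in the *Sod3* level was not tested. The log2 fold change was 2.59 (SE 1.45, 95% confidence interval −0.88 to 6.05, edgeR adjusted p 0.525), and without No279 it was −0.023.

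Per kilobase of exon, *Sod1* made up most of the summed superoxide dismutase level in 5 tumors and *Sod3* in the sixth. *Sod1* accounted for 93.3%, 75.4% and 73.3% of that level in the *Cd44*+/+ tumors, and for 75.2%, 20.4% and 91.6% in the *Cd44*−/− tumors. In No279 *Sod3* reached 75.8%, against 1.34% to 19.7% in the other tumors. *Sod2* held 3.82% to 19.3%, with its highest share in No203. The level per kilobase divides by all annotated exon bases, 10008 for *Sod2* and 3970 for *Sod1*.

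Of the glutathione peroxidases, the selenoproteins that reduce peroxides with glutathione, *Gpx1* was higher and *Gpx3* lower by mean in *Cd44*−/− tumors, and the *Gpx4* means were close. *Gpx1* (ENSMUSG00000063856, chr9:108338903-108340343, plus strand), the main peroxidase of the cytosol, had 151, 129.9 and 131 CPM in the *Cd44*+/+ tumors and 187, 407 and 1210.3 CPM in the *Cd44*−/− tumors. All *Cd44*−/− tumors were above all *Cd44*+/+ tumors, with No203 closest to them and No364 highest. The means were 141 ± 14.4 CPM (SD, n = 2) and 601 ± 539 CPM (SD, n = 3), with a log2 fold change of 2.13 (SE 0.75, 95% confidence interval 0.34 to 3.92). edgeR gave an unadjusted p of 0.0263 and an adjusted p of 0.452, and DESeq2 an adjusted p of 0.129. Without No364 the *Gpx1* log2 fold change was 1.12 (95% confidence interval 0.031 to 2.21), and with No316 and No368 summed the unadjusted edgeR p was 0.0842.

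*Gpx3* (ENSMUSG00000018339, chr11:54902453-54910377, plus strand), the secreted peroxidase of blood plasma, was the most abundant of the 10 genes. It had 4535, 2972 and 3060.0 CPM in the *Cd44*+/+ tumors and 3455, 1559.6 and 144 CPM in the *Cd44*−/− tumors. No364 held the lowest level by a wide margin, and No203 lay within the *Cd44*+/+ range. The means were 3776 ± 1074 CPM (SD, n = 2) and 1719 ± 1661 CPM (SD, n = 3), and the log2 fold change of −1.03 (SE 1.13, 95% confidence interval −3.73 to 1.66) had an edgeR adjusted p of 0.733. It was −0.48 without No364 and −2.08 without No203. Osteoblast markers summed to 37197, 53898 and 54705 CPM in the *Cd44*+/+ tumors and to 84991, 22522 and 3696 CPM in the *Cd44*−/− tumors, so that the sum, like *Gpx3*, was lowest in No364 and next lowest in No279. Of the 10 markers, *Alpl*, *Bglap*, *Bglap2*, *Spp1* and *Dmp1* were instead lowest in No279. In bulk tissue, fewer cells of a type and less RNA per cell cannot be told apart, and the part of the osteoblast markers in the *Gpx3* level was not tested.

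*Gpx4* (ENSMUSG00000075706, chr10:80047166-80056439, plus strand), which reduces lipid hydroperoxides in membranes and protects cells from ferroptosis, varied least of the 10 genes. Its levels were 696, 317 and 315.5 CPM in the *Cd44*+/+ tumors and 396, 255 and 664 CPM in the *Cd44*−/− tumors. The highest tumor of each genotype was at about the same level, and the lowest were No279 and the near-identical pair. Its log2 fold change was −0.015 (SE 0.60, 95% confidence interval −1.45 to 1.42, edgeR adjusted p 0.993), an interval that holds differences of more than 2-fold either way. Of its 51-base stretches, 34.5% also occur in transcripts of 2 other genes, neither of which is in the table of counts.

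Within the glutathione peroxidases, *Gpx3* held 83.1%, 85.7% and 86.0% of the summed level per kilobase in the *Cd44*+/+ tumors. The share was 84.1% in No203, 66.7% in No279 and 6.09% in No364. *Gpx1* held 3.48% to 5.73% in the 4 tumors other than No279 and No364, 21.9% in No279 and 64.4% in No364. In No364 the main peroxidase transcript was thus *Gpx1*, and in the other 5 tumors *Gpx3*. *Gpx3* alone also made up 73.6% to 76.9% of the summed CPM of the 10 genes in the 4 tumors other than No279 and No364, 45.8% in No279 and 3.14% in No364.

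**Figure D2:**
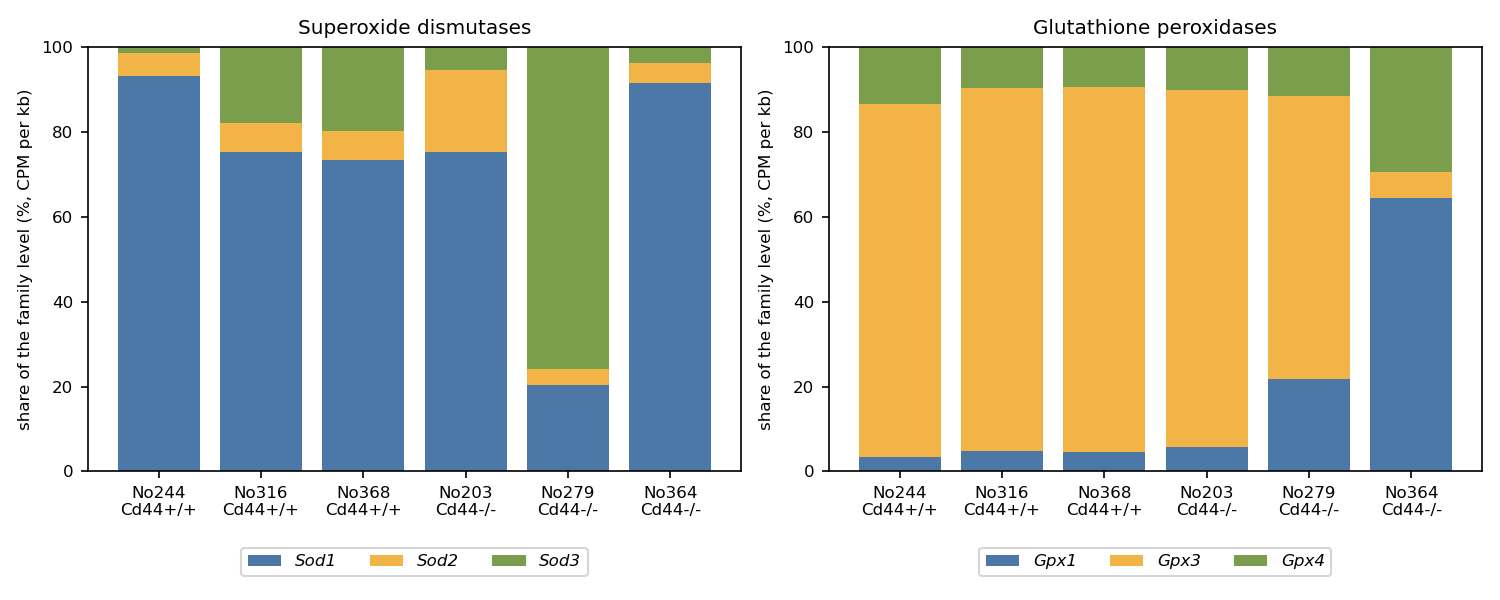
Share (%) of each gene in the summed level per kilobase of exon of the superoxide dismutases (left) and glutathione peroxidases (right) in each tumor, labelled with its genotype. *Sod3* takes 75.8% of the left bar in No279, and *Gpx1* takes 64.4% of the right bar in No364, where *Gpx3* holds 6.09%.

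*Prdx1* and *Txnrd1* belong to the thioredoxin system, in which the reductase renews thioredoxin and thioredoxin renews the peroxidase. *Prdx1* (ENSMUSG00000028691, chr4:116685544-116700822, plus strand), a cytosolic peroxiredoxin, had 179, 239.7 and 239 CPM in the *Cd44*+/+ tumors and 346, 404 and 1226 CPM in the *Cd44*−/− tumors. The genotypes did not overlap, and No364 was about 3 times as high as the next tumor. The means were 209 ± 42.7 CPM (SD, n = 2) and 659 ± 492 CPM (SD, n = 3), with a log2 fold change of 1.59 (SE 0.65, 95% confidence interval 0.045 to 3.13). edgeR gave an unadjusted p of 0.0453 and an adjusted p of 0.460, and DESeq2 an adjusted p of 0.229. Without No364 the *Prdx1* log2 fold change was 0.78 (95% confidence interval −0.13 to 1.69), with an unadjusted edgeR p of 0.0810. With No316 and No368 summed, the unadjusted edgeR p of *Prdx1* was 0.1165. For *Prdx1*, 8.58% of the 51-base stretches also occur in transcripts of other genes.

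*Txnrd1* (ENSMUSG00000020250, chr10:82833951-82897712, plus strand), the cytosolic thioredoxin reductase and a selenoprotein, had 47.8, 105 and 103 CPM in the *Cd44*+/+ tumors and 72.4, 174 and 157 CPM in the *Cd44*−/− tumors. No279 and No364 were above all *Cd44*+/+ tumors, while No203 lay between No244 and the near-identical pair. *Txnrd1* had a log2 fold change of 0.66 (SE 0.50, 95% confidence interval −0.55 to 1.86, edgeR adjusted p 0.626), which kept its sign in edgeR fits without any single tumor (0.36 to 0.92). 3 annotated genes overlap *Txnrd1*, one of them, *Eid3*, on its own strand.

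*Nqo1* (ENSMUSG00000003849, chr8:107388225-107403206, minus strand), the quinone reductase that is widely used as a readout of Nrf2, was low in all tumors but No364. It had 4.03, 7.51 and 8.35 CPM in the *Cd44*+/+ tumors and 3.41, 10.2 and 44.3 CPM in the *Cd44*−/− tumors. These rest on 48 to 308 counts in the 5 tumors other than No364 and on 847 counts in No364. The *Cd44*−/− group held both the lowest and the highest tumor. With all 6 tumors, the log2 fold change was 1.54 (SE 0.92, 95% confidence interval −0.66 to 3.73, edgeR adjusted p 0.545), and 0.039 without No364.

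*Hmox1* (ENSMUSG00000005413, chr8:75093621-75100589, plus strand), the inducible heme oxygenase, had 4.12, 35.0 and 33.7 CPM in the *Cd44*+/+ tumors and 26.1, 69.6 and 26.5 CPM in the *Cd44*−/− tumors. No244 was the lowest tumor, with 49 counts, and No279 the highest, with 2108. Its log2 fold change was 0.75 (SE 0.81, 95% confidence interval −1.19 to 2.68, edgeR adjusted p 0.733), and 0.11 without No279. The enzyme is abundant in macrophages, and 12 macrophage markers summed to 550.0, 2574 and 2574 CPM in the *Cd44*+/+ tumors and to 862, 1716 and 946 CPM in the *Cd44*−/− tumors. No244 was lowest for *Hmox1* and for the marker sum, but *Hmox1* was highest in No279 and the sum in No316. Single markers differed. *Cd68*, *Csf1r*, *Cd163* and *Itgam* were highest in No279, and the others of the list in No316 or No368. *Cd68* and *Csf1r* were lowest in No364, *Cd14*, *Cd163* and *C1qb* in No203, and the others in No244. The sum of 8 erythroid markers was highest in No244, at 9596 CPM, against 137 to 3500.0 CPM in the other tumors. Of these markers, *Alas2* was instead highest in No364, at 57.0 CPM against 52.9 CPM in No244. The part of either list in the *Hmox1* level was not tested.

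**Figure D3:**
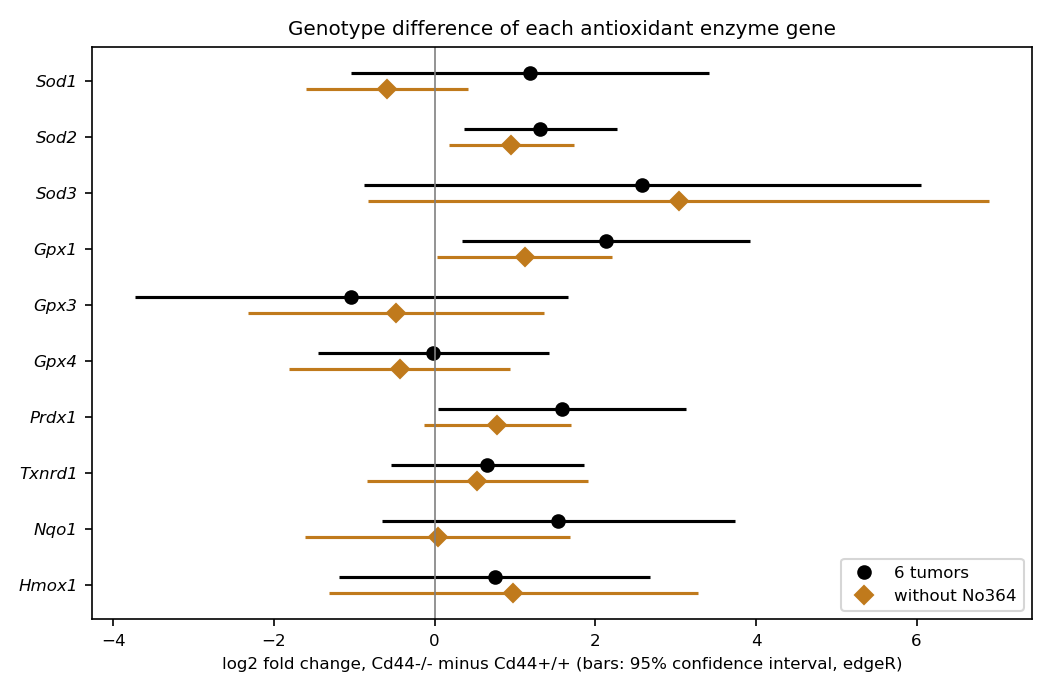
Log2 fold change (*Cd44*−/− minus *Cd44*+/+) of each gene from the edgeR fit, with bars for the 95% confidence interval, over all 6 tumors (black circles) and without No364 (orange diamonds). Over 6 tumors the interval lies above 0 for *Sod2*, *Gpx1* and *Prdx1*, and without No364 for *Sod2* and *Gpx1*, while the *Sod1* estimate goes from 1.18 to −0.59. Both fits take the near-identical No316 and No368 as separate samples, so the intervals may be too narrow.

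No364 was the highest tumor for 5 of the 10 genes, *Sod1*, *Sod2*, *Gpx1*, *Prdx1* and *Nqo1*, against 25.02% of all genes tested. The hepatocyte markers given above were highest in the same tumor. With the hepatocyte score as covariate, the log2 fold change was −0.70 for *Sod1*, 0.89 for *Sod2* (unadjusted edgeR p 0.0298), 1.10 for *Gpx1* (unadjusted edgeR p 0.0670), 0.74 for *Prdx1* (unadjusted edgeR p 0.131) and 0.029 for *Nqo1*. Leaving No364 out gave nearly the same log2 fold changes, −0.59, 0.96, 1.12, 0.78 and 0.039 in that order, because the score mainly marks No364. No279 was highest for *Sod3*, *Txnrd1* and *Hmox1*, and No244 for *Gpx3* and *Gpx4*. In No244 the 7 skeletal muscle markers were also highest, summing to 19860 CPM against 14.5 to 677 CPM in the other tumors. Their sum was lowest in No364, where *Gpx3* was lowest but *Gpx4*, at 664 CPM, was next highest after No244. The sums of the erythroid, osteoclast and smooth muscle markers were also highest in No244, at 9596, 13059 and 661 CPM. The erythroid sum was next highest in No364, at 3500.0 CPM. The part of these markers in the levels of *Gpx3* and *Gpx4* was not tested. Over the tumors, the range of log2 CPM of 7 of the 10 genes was above the median range of all genes tested, 2.07. The widest were 6.78 for *Sod3*, 4.97 for *Gpx3*, 4.05 for *Hmox1* and 3.67 for *Nqo1*, wider than 96.4%, 90.2%, 83.6% and 79.3% of all genes tested.

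Ordered by CPM per kilobase over 5 samples, *Gpx3* came first with a mean of 1402 ± 945 (SD). *Gpx1* followed with 289 ± 317, *Gpx4* with 270.0 ± 117, *Prdx1* with 157 ± 140.3 and *Sod1* with 78.9 ± 91.4. Far lower were *Sod3* with 24.2 ± 42.0, *Hmox1* with 18.4 ± 13.6, *Txnrd1* with 15.7 ± 7.60, *Nqo1* with 8.998 ± 11.1 and *Sod2* with 6.36 ± 3.69 (SD, n = 5 for each). *Gpx3* exceeded *Gpx1* by more than either SD, and every other pair of neighbours in this order differed by less than the larger of their SDs. *Gpx4* was above *Gpx1* in 4 tumors, No244, No316, No368 and No203, and *Gpx1* above *Gpx4* in No279 and No364. *Gpx3* ranked first in 5 tumors and was number 5 in No364.

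For the 4 genes with the widest range, the protein-coding genes with the most similar levels across the tumors were found by the root mean square difference of mean-centered log2 CPM over 5 samples. For *Sod3* these were *Ptprn* (0.093), *Fcrlb* (0.20) and *Eps8* (0.30), against a median of 2.38 over all genes. In No244, *Ptprn* had 0.084 CPM and *Fcrlb* 0 CPM, under the 3 counts taken as the smallest detectable level. Their closeness to *Sod3* in that tumor thus depends on the prior count of 2 that was added before logs were taken. *Eps8*, an actin regulator, had 78.5 CPM in No279 and 0.924 to 12.1 CPM in the other tumors. *Mmp23* (0.21), *Rcn3* (0.21) and *Slc9a5* (0.22) were closest to *Gpx3*, against a median of 1.90. *Rcn3*, a calcium-binding protein of the endoplasmic reticulum, had 404 to 432 CPM in the *Cd44*+/+ tumors and No203, 213 CPM in No279 and 20.4 CPM in No364. Closest to *Hmox1* were *Naaa* (0.18), *Itgam* (0.18) and *Polh* (0.21), against a median of 1.501, and closest to *Nqo1* were *Cd302* (0.18), *Por* (0.19) and *Plk3* (0.20), against 1.46. *Itgam*, an integrin of myeloid cells that is also in the macrophage list, had 7.06 CPM in No244 and 43.8 to 114 CPM in the other tumors. *Por*, the reductase that supplies electrons to cytochromes P450, had 429.8 CPM in No364 and 30.5 to 88.9 CPM in the other tumors.

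Another 71 genes of the same pathways, in 10 lists, were described in the same fit, and 68 of them were counted well enough to be tested. Of these, 54 (79.4%) had a log2 fold change above 0, against 55.1% of all genes, with a median of 0.83, and 42 (61.8%) were highest in No364, against 25.02% of all genes. 0 were called by edgeR after adjustment (0% of all genes), and 6 by DESeq2 (2.33% of all genes). At an unadjusted edgeR p under 0.05, 16 were higher and 2 lower in *Cd44*−/− tumors, together 26.5%, against 10.7% of all genes. The genotypes did not overlap for 17 genes with *Cd44*−/− higher (9.49% of all genes) and 4 with *Cd44*−/− lower (9.57% of all genes). Without No364, 40 of the 68 (58.8%) lay above 0, against 52.1% of all genes, with a median of 0.18, and 8 were higher and 2 lower at an unadjusted p under 0.05, together 14.7%, against 8.82% of all genes. With No316 and No368 summed, 6 were higher and 0 lower, 8.82% against 4.26% of all genes. With the hepatocyte score as covariate, 41 of the 68 lay above 0 (52.3% of all genes), with a median of 0.20, and 8 were higher and 1 lower at an unadjusted p under 0.05, together 13.2%, against 9.01% of all genes.

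The metallothioneins *Mt1* and *Mt2*, cysteine-rich proteins that bind zinc and copper and scavenge radicals, had the smallest unadjusted edgeR p-values of these lists. *Mt1* had 44.9, 32.2 and 30.5 CPM in the *Cd44*+/+ tumors and 133, 142 and 271 CPM in the *Cd44*−/− tumors. Its log2 fold change was 2.35 (SE 0.44), with an unadjusted edgeR p of 0.00127, an edgeR adjusted p of 0.452 and a DESeq2 adjusted p of 0.00149. *Mt2* had 23.5, 8.17 and 9.49 CPM in the *Cd44*+/+ tumors and 51.8, 148 and 297 CPM in the *Cd44*−/− tumors. The log2 fold change of *Mt2* was 3.60 (SE 0.79), with an unadjusted edgeR p of 0.00300 and a DESeq2 adjusted p of 0.00280. For both genes the genotypes did not overlap. DESeq2 also called *Mt1* and *Mt2* without No364, with adjusted p of 0.00174 and 0.0121, but not with No316 and No368 summed, with adjusted p of 0.106 and 0.0737. The third gene of that list, *Ccs*, the copper chaperone of *Sod1*, had 137 CPM in No364 and 11.95 to 39.9 CPM in the other tumors.

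After *Mt1* and *Mt2*, the smallest unadjusted edgeR p of these lists, 0.00530, was that of *Tkt* in the NADPH supply list. *Tkt*, transketolase of the pentose phosphate pathway, had 71.2, 62.9 and 60.8 CPM in the *Cd44*+/+ tumors and 141, 162 and 220.2 CPM in the *Cd44*−/− tumors. Its log2 fold change was 1.43 (SE 0.35), with an edgeR adjusted p of 0.452 and a DESeq2 adjusted p of 0.0201 that became 0.0730 without No364 and 0.385 with No316 and No368 summed. *Taldo1*, transaldolase of the same pathway, had 57.9, 49.0 and 45.8 CPM in the *Cd44*+/+ tumors and 105, 90.6 and 149.8 CPM in the *Cd44*−/− tumors, a log2 fold change of 1.18 (SE 0.35). *Idh1*, the cytosolic isocitrate dehydrogenase, was also higher in every *Cd44*−/− tumor, at 85.2 to 495 CPM against 38.2 to 78.3 CPM. The rest of the list differed less. *G6pdx* had a log2 fold change of −0.37 (SE 0.58) and *Me1* of 0.44 (SE 0.56), and both overlapped between genotypes, while *Pgd* had 0.53 (SE 0.35). Of the 6 genes of the list, 4 did not overlap between genotypes, all higher in *Cd44*−/− (9.49% of all genes), and 2 had an unadjusted edgeR p under 0.05 (10.7% of all genes).

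In the thioredoxin list, *Txn1*, cytosolic thioredoxin, had 72.4, 112 and 112 CPM in the *Cd44*+/+ tumors and 212, 221 and 270.0 CPM in the *Cd44*−/− tumors, with a log2 fold change of 1.24 (SE 0.38). *Txn2*, its mitochondrial counterpart, lay between 70.6 and 77.0 CPM in *Cd44*+/+ and between 105 and 156 CPM in *Cd44*−/− tumors. *Srxn1*, which repairs overoxidized peroxiredoxins, overlapped between genotypes, and its log2 fold change was 1.20 (SE 0.67). Of the 6 genes of the list, 3 had a log2 fold change above 0 and 3 below.

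Among 8 other peroxidase genes tested, 7 had a log2 fold change above 0 and 4 an unadjusted edgeR p under 0.05, all higher in *Cd44*−/− (10.7% of all genes in either direction). *Prdx6*, a peroxiredoxin that uses glutathione, had 45.3, 76.8 and 74.8 CPM in the *Cd44*+/+ tumors and 105, 318 and 469 CPM in the *Cd44*−/− tumors. *Prdx3*, the mitochondrial peroxiredoxin, lay between 30.0 and 38.8 CPM in *Cd44*+/+ tumors and had 62.5, 54.0 and 296 CPM in the *Cd44*−/− tumors. *Cat*, catalase, which is abundant in liver, had 1823 CPM in No364 and 37.4 to 58.1 CPM in the other tumors. The log2 fold change of *Cat* was 3.68 over 6 tumors and 0.15 without No364. *Gpx2*, *Gpx5* and *Gpx6* did not pass the filter on low counts.

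Glutathione synthesis was led by both subunits of glutamate-cysteine ligase, the limiting enzyme. *Gclc*, the catalytic subunit, had 2.27, 9.18 and 8.65 CPM in the *Cd44*+/+ tumors and 12.7, 24.2 and 336 CPM in the *Cd44*−/− tumors. *Gclm*, the modifier subunit, had 9.58, 81.8 and 72.8 CPM in the *Cd44*+/+ tumors and 104, 126 and 460.2 CPM in the *Cd44*−/− tumors. Neither gene overlapped between genotypes, and the log2 fold changes were 4.21 (SE 1.39) and 2.07 (SE 0.95). The DESeq2 adjusted p of *Gclc* was 0.0350 over 6 tumors, 0.444 without No364 and 0.131 with No316 and No368 summed. *Gss*, glutathione synthetase, had 152 CPM in No364 and 23.3 to 39.4 CPM in the other tumors.

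The regulators of Nrf2 were more even. *Nfe2l2* itself had 47.3, 111 and 108 CPM in the *Cd44*+/+ tumors and 44.1, 108 and 134 CPM in the *Cd44*−/− tumors, with a log2 fold change of 0.10 (SE 0.55). *Mafg*, a small Maf protein that binds DNA together with Nrf2, had 106, 114 and 112 CPM in the *Cd44*+/+ tumors and 51.9, 54.6 and 69.3 CPM in the *Cd44*−/− tumors. Every *Cd44*−/− tumor was thus below every *Cd44*+/+ tumor, with a log2 fold change of −0.92 (SE 0.31), an unadjusted edgeR p of 0.0214 and an adjusted p of 0.452. *Maff*, another small Maf, and *Bach2*, a repressor that competes for the same sites, had log2 fold changes of 1.20 (SE 0.70) and 0.88 (SE 0.52). Of the 10 regulators, 1 did not overlap in each direction (9.49% higher and 9.57% lower over all genes), and the median log2 fold change was 0.10.

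The list of conjugation and carbonyl reduction enzymes had the widest fold changes, and 9 of its 10 genes were highest in No364 (25.02% of all genes). *Gsta3*, a glutathione transferase, had 2199 CPM in No364 and 0.462 to 1.60 CPM in the other tumors, and *Mgst1*, the microsomal transferase, had 3677 CPM in No364 and 3.95 to 8.17 CPM in the other tumors. *Gsta4*, a transferase for the lipid peroxidation product 4-hydroxynonenal, was high in both No279 and No364, at 39.9 and 219 CPM, against 0.966 to 2.19 CPM in the other tumors. DESeq2 called *Gsta4* in all 9 of its settings, with adjusted p from 6.46e-10 to 0.0468, although No203, at 1.27 CPM, lay within the *Cd44*+/+ range. The hepatocyte markers were highest in No364 as well.

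In the remaining lists, *Sephs2* and *Eefsec*, which serve the insertion of selenocysteine into the glutathione peroxidases and *Txnrd1*, had log2 fold changes of 4.53 (SE 1.66) and 1.56 (SE 0.58). *Sephs2* had 299 CPM in No364 and 1.51 to 15.6 CPM in the other tumors, and its DESeq2 adjusted p of 0.0483 became 0.732 without No364. *Secisbp2*, which binds the selenocysteine insertion element, was lower in every *Cd44*−/− tumor, at 11.5 to 15.2 CPM against 18.3 to 22.5 CPM (log2 fold change −0.61, SE 0.34). *Ncf1*, a cytosolic subunit of the phagocyte oxidase that makes superoxide, had 80.2, 83.0 and 77.5 CPM in the *Cd44*+/+ tumors and 52.9, 11.1 and 10.4 CPM in the *Cd44*−/− tumors, with a log2 fold change of −1.69 (SE 0.69) and an unadjusted edgeR p of 0.0455. *Nox4*, an oxidase that releases hydrogen peroxide, overlapped between genotypes and was highest in No364, at 56.6 CPM against 1.77 to 11.1 CPM. *Hmox2*, *Blvrb* and *Ftl1*, of heme breakdown and iron storage, had log2 fold changes of 0.48 (SE 0.31), 2.26 (SE 1.10) and 0.57 (SE 0.67). Without No364 these were 0.31, −0.13 and 0.037. *Blvrb* had 383 CPM in No364 and 25.4 to 40.2 CPM in the other tumors. Of the 5 genes of their list, 0 had an unadjusted edgeR p under 0.05 (10.7% of all genes). *Hmox2* alone did not overlap between genotypes, with *Cd44*−/− higher (9.49% of all genes).

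**Figure D4:**
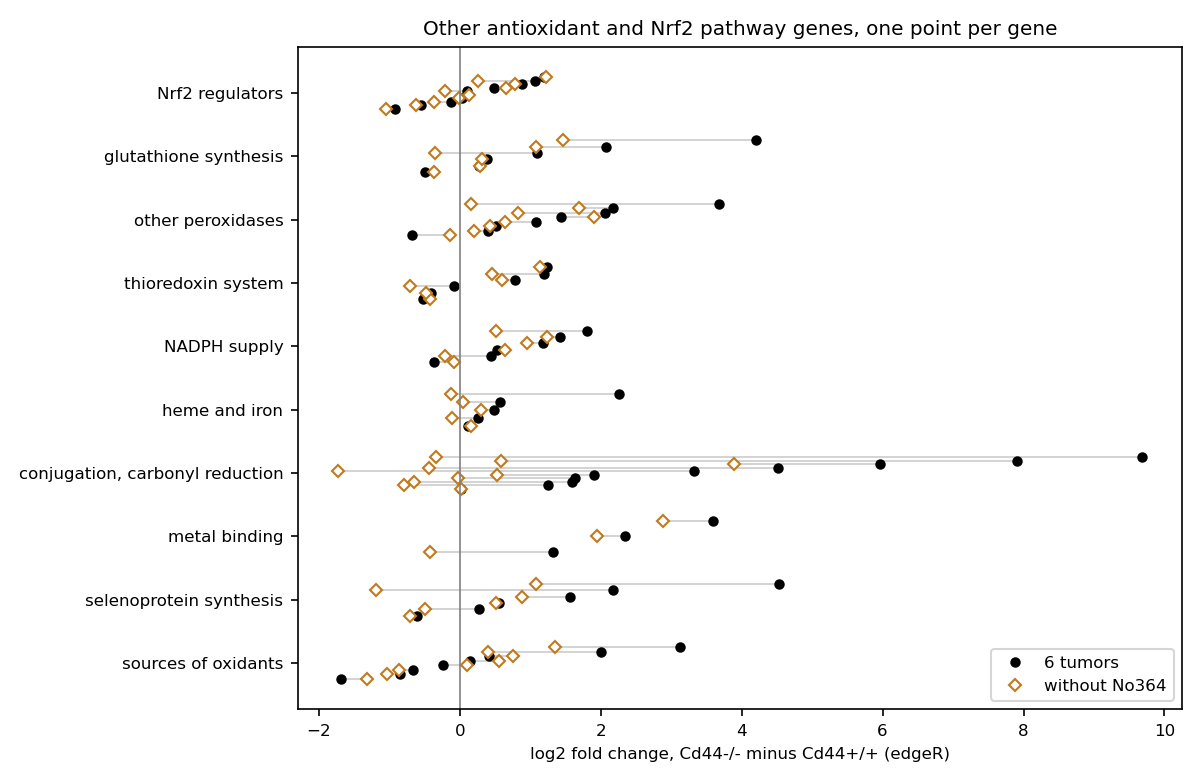
Log2 fold change (*Cd44*−/− minus *Cd44*+/+, edgeR) of each of the 68 tested genes of the other antioxidant lists, over all 6 tumors (black circles) and without No364 (orange diamonds), with a line that joins both values of a gene. 54 genes lie above 0 over 6 tumors and 40 without No364, and the longest lines belong to the conjugation and carbonyl reduction enzymes.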

How the data were processed

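RNA of 6 osteosarcomas was analysed, 3 *Cd44*+/+ and 3 *Cd44*−/−, grouped by the genotype label. The authors prepared stranded mRNA libraries, aligned reads to GRCm38 with HISAT2 2.0.2 and counted them per Ensembl gene with featureCounts of Subread 2.0.0 (bcl2fastq 1.8.4 before it, as the submitters' processing notes name it). They deposited raw counts without normalization. How reads that match several genes were counted is not given in the sources used here. GENCODE M21 gave symbols for 37693 of 39179 identifiers, and all gene coordinates (GRCm38). Separate cultures or extractions are not named, so p-values measure the spread between these libraries. The fits over 6 libraries took the near-identical No316 and No368 as separate samples. If the pair is not independent, the SEs and p-values of these fits are too small and the confidence intervals too narrow.

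Counts were tested with the quasi-likelihood F test of edgeR 4.0.16 (R 4.3.3, TMM factors, default filterByExpr, Benjamini-Hochberg adjustment over 16839 genes, threshold 0.05), with genotype as the single factor over 6 libraries. CPM are TMM-normalized. DESeq2 1.42.0 and limma-voom (limma 3.58.1) were alternatives, with other scalings and filters, a hepatocyte score as covariate, and each tumor left out. Fits were tested on simulated data. Level per kilobase is CPM divided by the length of all annotated exons. 51-base stretches were compared between annotated transcripts.

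The 10 genes and all lists were chosen with earlier results of these data known. Genes are named by a rule, which takes all 10 members, from each pathway list the 3 smallest unadjusted edgeR p-values and every DESeq2 call, and for the 4 widest members the 3 most similar genes. *Nfe2l2* was named in addition, as the factor that gives its list the name, and so were *G6pdx*, *Me1* and *Pgd*, as the rest of the NADPH supply list. Markers are given only beside a result.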

Additional observations from a re-analysis of the deposited data

How the results depend on the processing

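Of 250 fold changes of the 10 genes under the alternatives, 233 kept their direction and their side of the threshold. 15 reversed, in *Sod1*, *Sod3*, *Gpx4* and *Nqo1*. The log2 fold change of *Sod1* was −0.70 with a hepatocyte score as covariate, −0.33 without No244 and No364, and −0.74 with No316 and No368 summed and No364 left out. *Gpx4* went to 0.025 with library size alone, and *Nqo1* to −0.27 without No244 and No364. With 1 tumor left out, by edgeR or DESeq2, the log2 fold change ranged from −0.60 to 1.64 for *Sod1*, from −0.042 to 3.12 for *Sod3* and from −0.44 to 0.46 for *Gpx4*. The causes were not tested. 2 passed the threshold with a tumor left out of DESeq2, *Sod2* without No279 (adjusted p 0.0191) and *Gpx1* without No203 (adjusted p 0.00280). The number of the 10 genes called was 0 to 1 with 1 tumor left out and 0 in every other alternative run. Over all genes, edgeR called 0, while DESeq2 called 419, 146 with No316 and No368 summed, 1195 without its Cook's distance filter, and with 1 tumor left out the tools called 0 to 2394. Genes at an unadjusted p under 0.05 numbered 1810, and 639 to 4722 under the alternatives. For the 10 genes the number was 3, with 0 to 6 under the alternatives, and for the other pathway genes 18, with 3 to 32. The DESeq2 settings with the pair summed, without the Cook's distance filter or with 1 tumor left out, and the edgeR fit with the pair summed and No364 left out, were chosen after seeing the data. The labels share no replicate numbers between genotypes, so no pairing was tried. Depth limits *Nqo1*, *Hmox1* and *Sod3* in No244, where they rest on 48, 49 and 39 counts.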
